A study of Mus musculus with 10 samples.

Results

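Regulatory T cells (Tregs), the Foxp3-dependent CD4 T cells that hold back immune responses, carry inhibitory receptors on their surface. The genes described here are 8 that encode such receptors (Lag3, Pdcd1, Tigit, Ctla4, Havcr2, Cd160, Btla and Klrg1), Cd200, whose product signals to an inhibitory receptor on other cells, and Cd274, which encodes PD-L1, the ligand of PD-1. They were chosen by symbol, with earlier results of these data known, and make up 10 of the 23992 gene symbols measured. All 10 passed the filter on low counts in both comparisons. Where a symbol had several transcripts, the transcript with the highest mean number of reads stood for it.

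RNA of Tregs from C57BL/6J mice was sequenced in 10 libraries. Natural Tregs (nTregs) of wild-type spleen were cultured for 24 h with anti-CD3 and anti-CD28 antibodies, which stimulate the T cell receptor, plus the epithelial cytokine TSLP (TCR + TSLP, 2 libraries), or with the antibodies and no TSLP (TCR, 2 libraries). Lung Tregs came from the allergic lungs of mice immunized with ovalbumin. In one lung group Crlf2, the TSLP-binding chain of the TSLP receptor, was floxed and Cre recombinase was expressed as a YFP fusion from Foxp3 (Foxp3YFP-Cre, Crlf2-deleted, 3 libraries). The control mice carried Foxp3YFP-Cre as well, without the floxed gene (control, 3 libraries), although the genotype field calls them wild-type. Cre in this line acts in cells that express Foxp3, so that the deletion is aimed at Tregs. The labels give neither ages nor the number of mice behind a library.

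Inhibitory receptors are switched on when T cells are stimulated and damp the signals of the antigen receptor, in part by recruiting phosphatases or by competing with stimulating receptors for a shared ligand. CTLA-4 takes the ligands CD80 and CD86 away from CD28, PD-1 binds PD-L1 and PD-L2, LAG-3 binds MHC class II, TIGIT competes with CD226 for CD155, and BTLA and CD160 share the ligand HVEM. On Tregs, CTLA-4 is among the proteins needed for suppression, TIGIT, LAG-3 and KLRG1 mark activated or effector cells, and PD-1 is known to restrain the Tregs that carry it.

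Spleen libraries held 27237312 to 51671903 reads in genes and lung libraries 1439675 (control 2) to 18349039. Crlf2 was at 9.06, 6.73 and 3.55 normalised reads in the Crlf2-deleted libraries, against 92.8, 145.7 and 105.1 in the control libraries. Here and below, normalised reads are CPM (reads scaled to a common library size) after TMM scaling, which corrects for the composition of each library. The Treg genes Foxp3, Il2ra, Ikzf2, Cd4 and Cd3e were read in every library, and Foxp3 was at 386 to 490 normalised reads in Crlf2-deleted libraries, against 200.1 to 474 in control libraries.

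The third control lung library stood apart in its content of other cells. Its haemoglobin reads summed to 113300 normalised reads, against 1236 to 4589 in the other 5 lung libraries. Its macrophage and monocyte markers summed to 4249 (258 to 948 in the other 5), its B cell markers to 333 (13.3 to 25.5) and its NK cell markers to 112.5 (0.888 to 6.16), while its Treg markers summed to 1004 (1780 to 2017). Lung epithelial markers summed to 2276 to 17990 in Crlf2-deleted libraries, against 16480 to 79010 in control libraries. Lung results of the 10 genes are therefore also given without control 3. In bulk RNA a smaller share of cells that express a gene and less RNA per cell cannot be told apart.

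**Figure D1:**
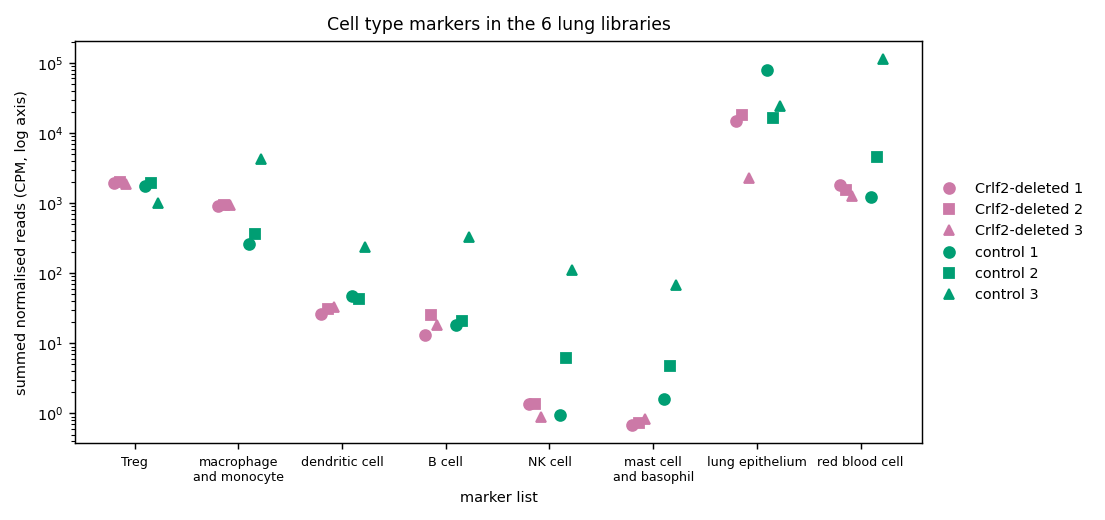
Summed normalised reads (CPM, log axis) of cell type marker lists in the 3 Crlf2-deleted and the 3 control lung libraries, 1 symbol per library. Control 3 lies above the other libraries for red blood cell, macrophage, dendritic cell, B cell, NK cell and mast cell markers and below them for Treg markers.

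Levels of different genes were compared on the authors' RPKM, which divides reads by transcript length. In TCR + TSLP cultures Lag3 stood highest at 59.9 ± 0.849 RPKM (SD, n = 2, as for the other spleen values), followed by Ctla4 at 55.8 ± 0.474 and Btla at 29.6 ± 0.542. In TCR cultures the same 3 genes led, with Lag3 at 90.9 ± 1.26, Ctla4 at 38.6 ± 6.70 and Btla at 19.9 ± 2.77 RPKM. Klrg1 was lowest in both, at 0.380 ± 0.0210 RPKM with TSLP and 0.388 ± 0.0133 without. Neighbours in this order did not overlap in their libraries with TSLP. Without TSLP the ranges of Cd200 and Pdcd1, and those of Havcr2 and Klrg1, did overlap.

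The order in lung Tregs was another. In Crlf2-deleted Tregs Pdcd1 stood highest at 145 ± 33.3 RPKM (SD, n = 3, as for the other lung values), then Tigit at 85.6 ± 9.71, Ctla4 at 73.2 ± 9.27, Klrg1 at 48.5 ± 13.0 and Lag3 at 34.7 ± 4.42. In control Tregs the first 3 were Ctla4 at 34.8 ± 10.3, Tigit at 29.5 ± 5.80 and Pdcd1 at 26.7 ± 8.27 RPKM, whose ranges overlapped, so that their order is not settled. Klrg1 followed at 14.9 ± 1.96 and Lag3 at 6.12 ± 0.598. In both lung groups the other 5 members lay at 5.04 RPKM or below in every library. The ranges of Tigit and Ctla4, and of Klrg1 and Lag3, overlapped in the Crlf2-deleted group, and those of Cd200, Btla, Havcr2 and Cd160 overlapped from each to the next in the control group.

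Klrg1, Btla and Cd200 are examples of genes whose levels did not overlap between lung and spleen libraries. Klrg1, a receptor for cadherins, was at 12.7 to 60.9 RPKM in the 6 lung libraries and at 0.365 to 0.398 in the 4 spleen libraries. Btla was at 0.464 to 1.24 RPKM in lung, against 18.0 to 30.0 in spleen, and Cd200 at 1.15 to 2.70 in lung, against 10.5 to 28.2 in spleen. No test was made of these levels, because tissue, culture and possibly the library kit differed together and cannot be told apart. RPKM is also scaled to a library total that is larger than the reads in genes. Reads in genes were 14.9% to 23.6% of that total in lung and 37.8% to 44.5% in spleen, which lowers lung RPKM relative to a scale of gene reads.

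**Figure D2:**
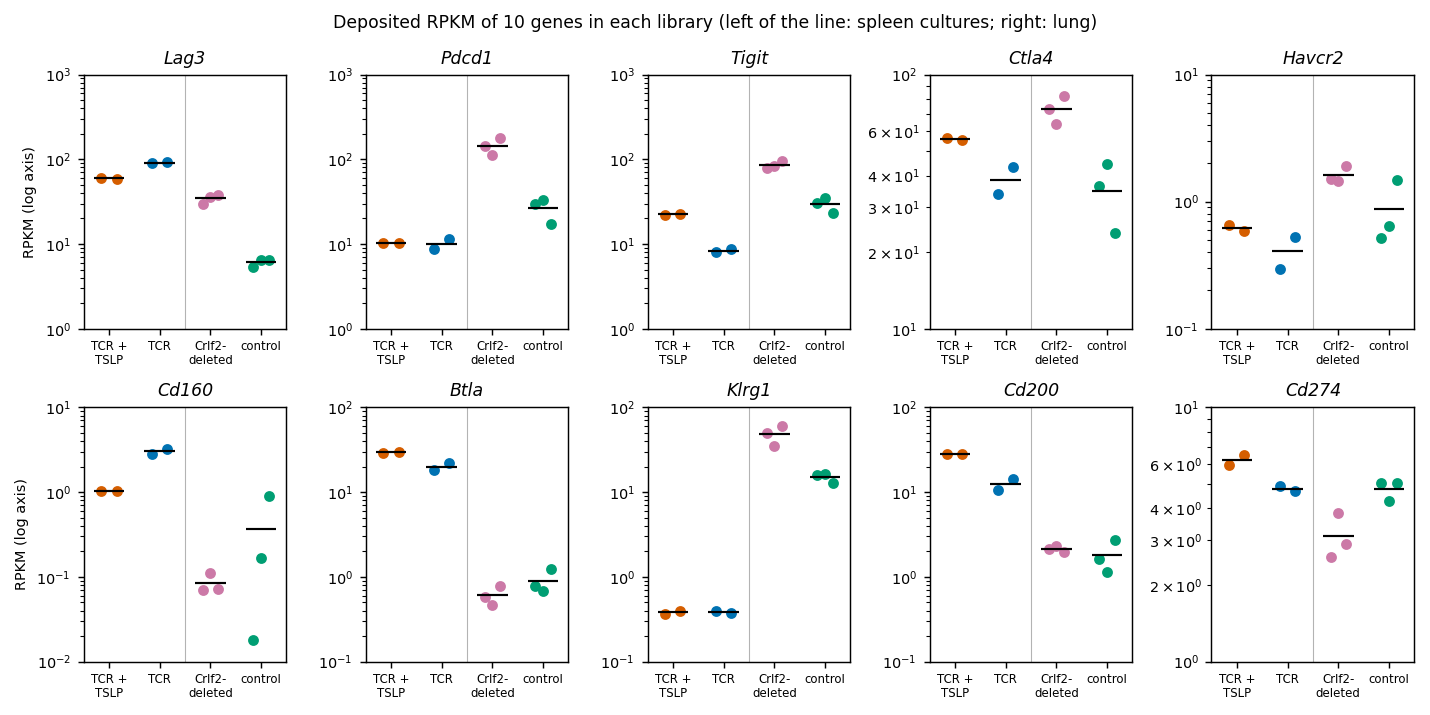
Deposited RPKM (log axes, 1 panel per gene with its own scale) of the 10 genes in TCR + TSLP and TCR spleen cultures (2 libraries each) and in Crlf2-deleted and control lung Tregs (3 libraries each). Points are libraries and lines are group means. Klrg1 lies between 12.7 and 60.9 RPKM in lung and at 0.398 or below in spleen, and Btla and Cd200 lie the other way round.

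The culture comparison asked what TSLP does to Tregs that are being stimulated. Among the 10 genes Tigit and Cd200 rose, Lag3, Pdcd1 and Cd160 fell, and 5 did not pass the test. A gene was called where its adjusted p was under 0.05 in edgeR's quasi-likelihood test (two-sided, Benjamini-Hochberg over all genes tested), and every adjusted p below is from this test unless another is named. By that rule 45.8% of the 13214 genes tested were called, 22.7% as higher and 23.1% as lower, so that 5 of 10 is near the background. The libraries of both groups did not overlap for 8 of the 10 genes (all but Havcr2 and Cd274), against 75.4% of all genes.

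Tigit encodes a receptor that competes with the stimulating receptor CD226 for the ligand CD155. It was at 44.9 and 45.2 normalised reads in the TCR + TSLP libraries, against 22.0 and 21.3 in the TCR libraries. Both TCR + TSLP libraries were higher, and the replicates differed little. The rise was 2.08-fold, a log2 fold change of 1.06 with an SE of 0.10 (adjusted p = 0.000198). Its gene lies on chromosome 16 (43626137 to 43665125 on mm10, minus strand).

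Cd200 encodes a surface protein that delivers an inhibitory signal to cells with the CD200 receptor. It was at 139.0 and 136.8 normalised reads with TSLP, against 70.1 and 84.8 without. The groups did not overlap, and the spread lay in the TCR libraries. The log2 fold change was 0.83 with an SE of 0.11 (adjusted p = 0.000793). The gene lies on chromosome 16 (45382111 to 45409060, minus strand). Cd200r1, the receptor for this ligand, was at 6.34 ± 0.260 with TSLP and 5.03 ± 1.19 without and did not pass (log2 0.34, adjusted p = 0.199).

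Cd160, whose product is a receptor for HVEM that NK cells and some T cells carry, moved most. It was at 5.40 and 5.44 normalised reads in the TCR + TSLP libraries, against 20.1 and 20.8 in the TCR libraries. The replicates lay close to each other and the groups far apart. The log2 fold change was -1.91 with an SE of 0.12 (adjusted p = 0.000159), the rank of its p being 11 among all genes tested. The counts behind it were 202 and 307 reads with TSLP, against 519 and 520 without. Cd160 lies on chromosome 3 (96798763 to 96829351, minus strand), where Pdzk1 overlaps it on the opposite strand, and the sources used here give no strand rule for the counting. Pdzk1 held 137 and 191 reads in the TCR + TSLP libraries, which were the deeper ones, against 118 and 114 in the TCR libraries. With all 4 groups in the same fit the call was lost (log2 -1.87, adjusted p = 0.268). CD8 T cell markers summed to 19.6 and 20.5 normalised reads with TSLP, against 33.0 and 34.0 without, and both genes of that list fell (Cd8b1 at -0.92, adjusted p = 0.000514, and Cd8a at -0.47, adjusted p = 0.0284). NK cell markers summed to 5.27 and 5.74 with TSLP, against 8.33 and 7.14 without. Klre1 among them fell (-1.72, adjusted p = 0.0229), on 17 reads with TSLP and 31 without. Eomes (-0.44, adjusted p = 0.0692) and Klrb1c (0.05, adjusted p = 0.935) did not pass, and Ncr1 and Klra8 were too low to test. The part of either list in the Cd160 result was not tested.

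Lag3 encodes a receptor for MHC class II that is related to CD4. It was at 254 and 246 normalised reads with TSLP, against 515 and 468 without. Both TCR + TSLP libraries lay below both TCR libraries. The log2 fold change was -0.98 with an SE of 0.09 (adjusted p = 0.000215). Pdcd1, the gene for PD-1, was at 41.7 and 40.8 normalised reads with TSLP, against 47.8 and 56.7 without. The groups did not overlap, but the TCR libraries differed from each other by more than the gap between the groups. Its log2 fold change was -0.34 with an SE of 0.11 (adjusted p = 0.0336), and its direction turned with 2 other scalings, to 0.03 on log2 of the deposited RPKM plus 1 (limma, adjusted p = 0.883) and to 0.25 with libraries scaled to T cell genes (adjusted p = 0.106). The call was also lost when library totals alone set the scale (-0.11, adjusted p = 0.405) and without TCR + TSLP library 1 or 2 (adjusted p = 0.162 and 0.235).

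Ctla4, Btla, Havcr2, Klrg1 and Cd274 did not pass. Ctla4 was at 227 and 222 normalised reads with TSLP, against 187 and 213 without (log2 0.17, SE 0.09, adjusted p = 0.176). Btla, a second HVEM receptor, was at 198.4 and 201.4 with TSLP, against 166 and 180 without (log2 0.21, SE 0.09, adjusted p = 0.0847). In both genes the TCR + TSLP libraries were higher without overlap. Without TCR library 2 both passed, Ctla4 at a log2 of 0.29 (adjusted p = 0.000702) and Btla at 0.29 (adjusted p = 0.000772), and Havcr2 passed as well (0.63, adjusted p = 0.0121). Btla also passed as higher with library totals (0.44, adjusted p = 0.00319), on log2 of RPKM plus 1 (0.55, limma, adjusted p = 0.0125) and with T cell scaling (0.80, adjusted p = 0.000145).

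Havcr2, the gene for TIM-3, was at 3.75 and 3.31 normalised reads with TSLP, against 2.29 and 3.67 without, and overlapped (log2 0.24, SE 0.26, adjusted p = 0.478). Klrg1 was near the lower end of what was measured, with 39 and 63 reads with TSLP, against 40 and 33 without (log2 -0.40, SE 0.30, adjusted p = 0.299). Cd274 was at 45.4 and 49.2 normalised reads with TSLP, against 51.0 and 43.4 without, and overlapped. Its log2 fold change was 0.00 with an SE of 0.11 (adjusted p = 0.977). With trends on transcript length and GC content removed, Btla was at -0.21 (adjusted p = 0.0303) and Cd274 at -0.35 (adjusted p = 0.0407), both as lower. Cd274 passed as higher on log2 of RPKM plus 1 (0.32, limma, adjusted p = 0.0433) and with T cell scaling (0.60, adjusted p = 0.00128), so that the signs of both genes depend on such steps. With T cell scaling Klrg1 was at 0.19 (adjusted p = 0.589).

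Over all genes, longer transcripts had higher fold changes in the cultures, with a median log2 of -0.999 among 270 genes under 500 bp and 0.205 among 3049 genes of 4000 to 8000 bp. The members' transcripts were 963 bp (Tigit) to 3638 bp (Cd274) long. Lag3 (2003 bp), Cd160 (2513 bp), Tigit and Cd200 (2347 bp) kept their direction and call with either trend removed. How the trend arose was not tested.

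**Figure D3:**
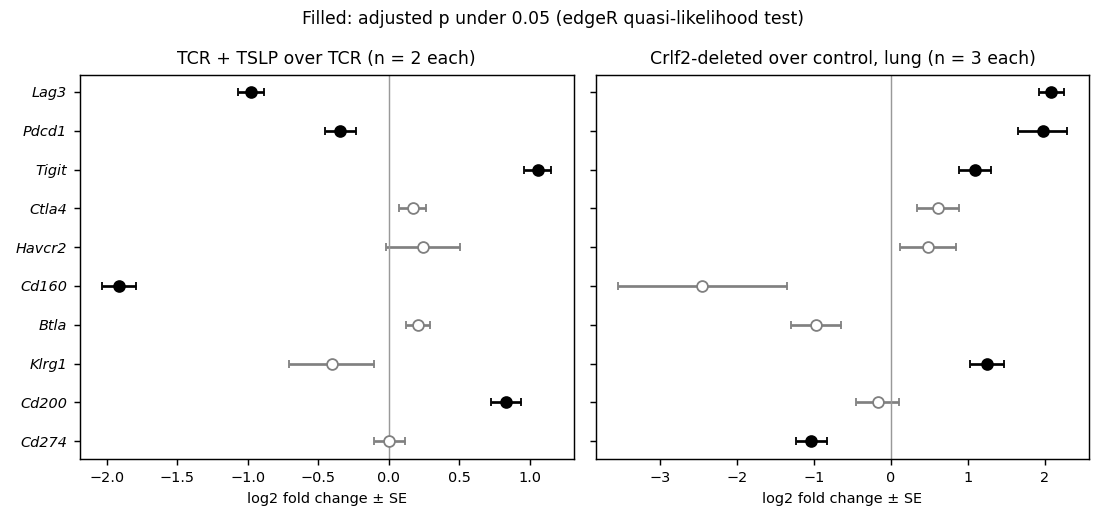
Log2 fold change (x axis, bars are SE) of the 10 genes, TCR + TSLP over TCR (left, n = 2 each) and Crlf2-deleted over control (right, n = 3 each), with a different scale on each side. Filled points passed an adjusted p of 0.05. Lag3 and Pdcd1 lie left of 0 with TSLP (-0.98 and -0.34) and right of 0 with the deletion (2.08 and 1.97), and Tigit lies right of 0 in both (1.06 and 1.09).

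The second comparison asked how lung Tregs without Crlf2 differ from control lung Tregs. Lag3, Pdcd1, Tigit and Klrg1 rose, Cd274 fell, and 5 genes did not pass. The background was 1.79% of 12717 genes tested, 0.771% as higher and 1.01% as lower, against 5 of the 10 genes, 4 of them as higher and 1 as lower. The members were chosen with earlier results of these data known, so these shares are a description and not a test. The libraries of both groups did not overlap for 7 of the 10 genes, against 22.0% of all genes. Only the call on Lag3 was kept whichever of the 6 libraries was left out. Calls over all genes changed with the library left out as well. They were 2 higher and 2 lower without Crlf2-deleted 1, 3 and 4 without Crlf2-deleted 3, and 252 and 280 without control 3. A lost call is therefore not particular to these genes.

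Lag3 was at 265, 337 and 309 normalised reads in the Crlf2-deleted libraries, against 64.7, 85.5 and 67.1 in the control libraries. Every Crlf2-deleted library lay above every control library, and control 3 lay between the other 2. The rise was 4.24-fold, a log2 fold change of 2.08 with an SE of 0.16 (adjusted p = 0.00465), and its p was rank 1 among the genes tested. With 1 library left out the log2 fold change ran from 2.01 to 2.22 and the adjusted p from 0.00173 to 0.0414. Without control 3 it was 2.05 (adjusted p = 0.00173). Lag3 lies on chromosome 6 (124904359 to 124912434 on mm10, minus strand).

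Pdcd1 was at 1246, 1006 and 1402 normalised reads in the Crlf2-deleted libraries, against 341, 421 and 174 in the control libraries. The Crlf2-deleted libraries were all higher, and control 3 was the lowest of the 6. The rise was 3.92-fold, a log2 fold change of 1.97 with an SE of 0.32 (adjusted p = 0.0354). Without control 3 it was 1.69 (adjusted p = 0.0023). The call was lost without control 1 or 2 (adjusted p = 0.0902 and 0.0527) and without Crlf2-deleted 1, 2 or 3 (adjusted p = 0.184, 0.0710 and 0.184), with log2 fold changes of 1.86 to 2.26. Pdcd1 lies on chromosome 1 (94038305 to 94052553, minus strand).

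Klrg1, which in lung and other tissues marks highly differentiated effector Tregs, was at 301, 221 and 337 normalised reads in the Crlf2-deleted libraries, against 129.9, 145.0 and 89.9 in the control libraries. The groups did not overlap, and control 3 was again lowest. The log2 fold change was 1.25 with an SE of 0.22 (adjusted p = 0.0354) and 1.07 without control 3 (adjusted p = 0.0185). The call was lost without control 1 or 2 (adjusted p = 0.0876 and 0.0680) and without Crlf2-deleted 1 or 3 (adjusted p = 0.190 each). NK cells and group 2 innate lymphoid cells (ILC2) also carry KLRG1. NK cell markers summed to 0.888 to 1.36 normalised reads in Crlf2-deleted libraries, against 0.936, 6.16 and 112.5 in control libraries, with control 1 inside the range of the Crlf2-deleted libraries. The ILC2 list, which Klrg1 itself belongs to and whose Gata3, Il1rl1 and Rora lung Tregs express as well, summed to 1894 to 2545, against 790 to 1485. Gata3 alone had means of 1558 and 776. Il5, the remaining gene of the list, went the other way, with means of 1.52 and 7.99 (log2 -2.44, adjusted p = 0.307). The part of either list in the result was not tested.

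Tigit was at 336, 368 and 378 normalised reads in the Crlf2-deleted libraries, against 174, 220.3 and 116 in the control libraries. The groups did not overlap, and control 3 was lowest. The log2 fold change was 1.09 with an SE of 0.21 (adjusted p = 0.0475) and 0.88 without control 3 (adjusted p = 0.0125). The call was lost without control 1 or 2 (adjusted p = 0.109 and 0.0527) and without Crlf2-deleted 1, 2 or 3 (adjusted p = 0.197, 0.136 and 0.238), and also with median-of-ratios factors (1.10, adjusted p = 0.0508) or library totals (1.25, adjusted p = 0.0551) in place of TMM.

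**Figure D4:**
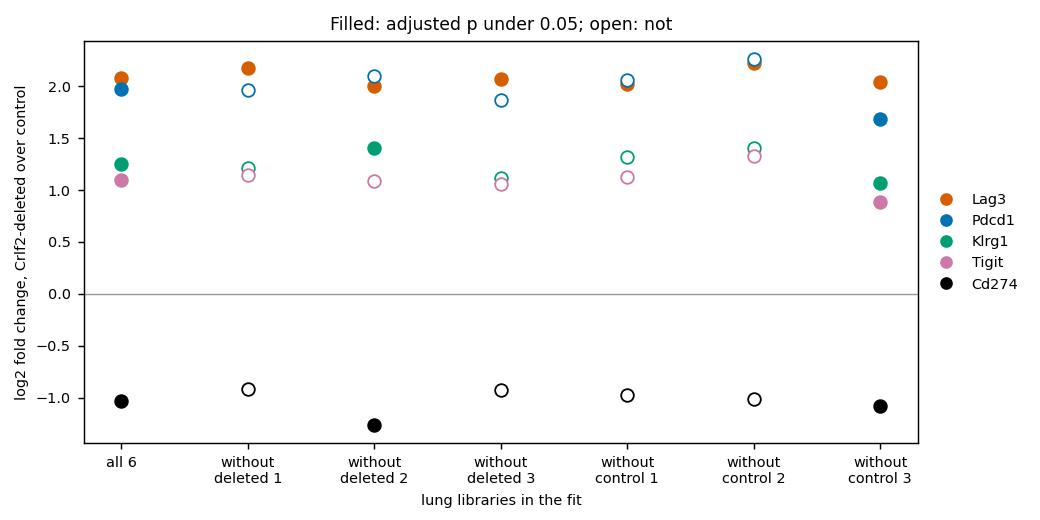
Log2 fold change, Crlf2-deleted over control, of the 5 genes called with all 6 lung libraries and with each library left out in turn (x axis). Filled points have an adjusted p under 0.05. Lag3 is filled at every position, from 2.01 to 2.22, and all 5 genes are filled without control 3.

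The T cell receptor and CD4 genes did not pass, but each was above 0 (Cd3d 0.28, Cd3e 0.50, Cd3g 0.52 and Cd4 0.55 as log2 fold change). With the libraries scaled to the sum of these genes, an alternative chosen after the data were seen, Lag3 was at a log2 of 1.59 (adjusted p = 0.0066), Pdcd1 at 1.55 (adjusted p = 0.0071) and Klrg1 at 0.78 (adjusted p = 0.0421). Tigit was at 0.65 and no longer passed (adjusted p = 0.0535), and Cd274 was at -1.52 (adjusted p = 0.017).

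Ctla4, Btla, Cd200, Havcr2 and Cd160 did not pass in lung. Ctla4 was at 634, 572 and 646 normalised reads in the Crlf2-deleted libraries, against 419, 565 and 239 in the control libraries. The groups came close, at 572 against 565, and control 3 was lowest (log2 0.61, SE 0.28, adjusted p = 0.340). Btla was at 8.28, 6.97 and 10.3 in Crlf2-deleted libraries, against 14.8, 14.4 and 20.8 in control libraries. It did not overlap, though it rested on as few as 21 reads in control 2 (log2 -0.98, SE 0.32, adjusted p = 0.182).

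Cd200 was at 22.1, 25.1 and 18.9 in Crlf2-deleted libraries, against 22.6, 17.8 and 32.9 in control libraries, and overlapped (log2 -0.18, SE 0.27, adjusted p = 0.807). Havcr2 was at 18.3, 18.5 and 21.2 in Crlf2-deleted libraries, against 8.43, 11.6 and 20.9 in control libraries (log2 0.48, SE 0.36, adjusted p = 0.571). Without control 3 its log2 fold change was 1.004 (adjusted p = 0.127), and with T cell scaling -0.12 (adjusted p = 0.864). Macrophages also carry TIM-3. Macrophage and monocyte markers summed to 920 to 948 in Crlf2-deleted libraries, against 258, 360 and 4249 in control libraries. Their part in the Havcr2 values was not tested. Cd160 held 8, 16 and 14 reads in Crlf2-deleted libraries, against 2, 4 and 125 in control libraries, so that its log2 fold change of -2.45 with an SE of 1.10 (adjusted p = 0.327) rested on control 3, which also held the NK cell markers. Without control 3 it was -0.29 (adjusted p = 0.931). Without control 3 the log2 fold changes of Ctla4, Btla and Cd200 were 0.34 (adjusted p = 0.240), -0.77 (adjusted p = 0.280) and 0.10 (adjusted p = 0.883), with the sign of Cd200 turned. Ctla4 passed on log2 of RPKM plus 1 (1.09, limma, adjusted p = 0.0381), and Btla passed with all 4 groups in 1 fit (-0.98, adjusted p = 0.0131).

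Cd274 encodes PD-L1, the ligand of PD-1, which interferon-gamma is known to induce. It was at 41.7, 65.1 and 43.0 normalised reads in the Crlf2-deleted libraries, against 109.1, 102.6 and 95.3 in the control libraries. All Crlf2-deleted libraries were lower, and the control libraries, control 3 included, lay close together. The log2 fold change was -1.04 with an SE of 0.20 (adjusted p = 0.0459) and -1.08 without control 3 (adjusted p = 0.033). The call was lost without control 1 or 2 (adjusted p = 0.111 and 0.109) and without Crlf2-deleted 1 or 3 (adjusted p = 0.242 and 0.255), and with library totals as the only scaling (-0.86, adjusted p = 0.0982) or on log2 of RPKM plus 1 (-0.50, limma, adjusted p = 0.0949). Macrophages and dendritic cells also carry PD-L1. Macrophage and monocyte markers summed to 920 to 948 normalised reads in Crlf2-deleted libraries, against 258, 360 and 4249 in control libraries, while dendritic cell markers summed to 26.1 to 33.1, against 42.4 to 237. Their part in the result was not tested.

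The 250 bases before the start of transcription are shown for Cd274, whose induction by interferon is known to run through interferon regulatory factors, with those of Ctla4 and Btla, the other members whose window held a match to the interferon regulatory factor motif, and of Pdcd1, its receptor gene, which held none. Sequences are RefSeq's on GRCm38.p6, read 5′ to 3′ on the strand of the gene, and capitals mark matches to the motif GAAANNGAA on either strand.
Cd274 (chr19:29367188-29367437, plus strand): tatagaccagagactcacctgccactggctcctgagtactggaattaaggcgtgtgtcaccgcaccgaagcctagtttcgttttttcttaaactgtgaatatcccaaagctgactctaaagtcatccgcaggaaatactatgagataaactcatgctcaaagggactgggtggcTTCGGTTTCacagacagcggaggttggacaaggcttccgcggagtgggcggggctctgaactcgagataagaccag
Ctla4 (chr1:60908775-60909024, plus strand): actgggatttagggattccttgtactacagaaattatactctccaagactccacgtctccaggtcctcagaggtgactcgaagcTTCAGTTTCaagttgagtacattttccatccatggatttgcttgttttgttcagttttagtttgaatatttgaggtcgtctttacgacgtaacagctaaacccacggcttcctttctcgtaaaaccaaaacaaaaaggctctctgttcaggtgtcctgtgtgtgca
Btla (chr16:45224087-45224336, plus strand): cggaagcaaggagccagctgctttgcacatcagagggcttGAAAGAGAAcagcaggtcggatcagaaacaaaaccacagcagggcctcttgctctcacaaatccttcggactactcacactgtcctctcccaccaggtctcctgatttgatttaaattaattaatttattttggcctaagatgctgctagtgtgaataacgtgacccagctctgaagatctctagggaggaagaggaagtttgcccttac
Pdcd1 (chr1:94052554-94052803, minus strand): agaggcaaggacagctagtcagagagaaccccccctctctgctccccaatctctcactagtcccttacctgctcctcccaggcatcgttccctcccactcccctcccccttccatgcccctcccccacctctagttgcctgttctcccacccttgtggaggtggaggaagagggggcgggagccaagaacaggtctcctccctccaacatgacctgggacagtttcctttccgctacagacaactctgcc

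The match in Cd274 lay 76 to 68 bases before the start, that in Ctla4 166 to 158 and that in Btla 210 to 202 bases before it. The same motif was in 7.13% of 32851 windows of this length. The motifs TTCNNNGAA of STAT factors (7.02% of windows) and TGANTCA of AP-1 (6.75%), both searched on both strands, were in none of these 4 windows, and the NFAT core GGAAAA (20.4%) was in that of Ctla4. Promoter windows were found for 8 of the 10 genes, all but Lag3 and Klrg1. A match is a description of letters and says nothing of binding.

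Of 15 interferon-induced genes 10 fell in Crlf2-deleted Tregs, 0 rose and 5 did not pass (median log2 -2.56, against -0.04 over all genes tested). The share called as lower over all genes was 1.01%. Gbp2, a guanylate-binding protein, was at 41.6 ± 1.22 normalised reads in Crlf2-deleted and 255 ± 77.9 in control libraries (log2 -2.61, SE 0.24, adjusted p = 0.00506). Cxcl10, a chemokine, was at 8.37 ± 2.05 and 86.4 ± 38.0 (log2 -3.35, SE 0.36, adjusted p = 0.00923). Rsad2, Bst2, Iigp1 and Isg15 had log2 fold changes of -2.68, -2.18, -3.18 and -2.56. Without control 3 the count was 13, and these 6 genes were among them (Gbp2 at -2.85 and Cxcl10 at -3.61). Without Crlf2-deleted 1 or 3 the count was 0 (adjusted p of the 6 genes 0.0697 to 0.0994), without control 1 it was 5 and without control 2 it was 2. With TSLP 4 of the 15 rose, 4 fell and 7 did not pass (median -0.03, against 0.01 over all genes), with Gbp5 at 0.89 and Irf7 at -0.81. The share called over all genes was 45.8% there. With all 4 groups in 1 fit 1 of the 15 was called. That fit called 541 of 14445 genes as higher and 815 as lower. Fewer of the 15 were called without TCR + TSLP library 1 or 2, over all genes as well. How far the level of Cd274 depends on interferon was not tested.

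Pdcd1lg2, the gene for the second PD-1 ligand PD-L2, was at 19.3 ± 2.67 normalised reads in Crlf2-deleted and 17.8 ± 10.7 in control libraries and did not pass (log2 0.05, adjusted p = 0.970). With TSLP it was at 25.0 ± 0.154, against 30.6 ± 0.0587 without (log2 -0.29, SE 0.09, adjusted p = 0.0357), and its sign turned with RPKM (0.06, limma, adjusted p = 0.658) and with T cell scaling (0.30, adjusted p = 0.0322).

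Of 15 ligands of these receptors, with Cd200r1, the receptor of Cd200, counted among them, 13 were tested in lung. There 1.01% of all genes were called as lower. Of these 13 ligands 2 fell and 0 rose (median log2 -0.78). They were Cd86, a ligand of CTLA-4 and CD28 (9.06 ± 0.893 normalised reads in Crlf2-deleted and 22.5 ± 0.972 in control libraries, log2 -1.31, SE 0.25, adjusted p = 0.0469), and Lgals9, a ligand of TIM-3 (148 ± 9.59 and 295 ± 74.4, log2 -0.99, SE 0.19, adjusted p = 0.0459). Neither passed without control 1, without control 2 or without any 1 of the Crlf2-deleted libraries, and Cd86 also did not pass without control 3 (adjusted p = 0.0503). Antigen-presenting cells express both. The dendritic cell markers given above were lower in Crlf2-deleted libraries. Macrophage and monocyte markers summed to 920 to 948 there, against 258, 360 and 4249 in control libraries. The part of either list in these falls was not tested. H2-Ab1, a ligand of LAG-3, was at 201 ± 43.2 and 653 ± 823 (log2 -1.71, adjusted p = 0.487), with a wide spread among control libraries. With TSLP 4 of the 12 ligands tested fell and 0 rose (median -0.18), against 23.1% of all genes called as lower. The 4 were Lgals3, a ligand of LAG-3 (log2 -0.93, adjusted p = 0.00035), H2-Ab1 (-0.68, adjusted p = 0.00125), the HVEM gene Tnfrsf14 (-0.90, adjusted p = 0.00548) and Pdcd1lg2. With length and GC trends removed H2-Ab1 was at -0.12 (adjusted p = 0.221) and Tnfrsf14 at -0.18 (adjusted p = 0.483). More of the ligands were called without TCR library 1 or 2, over all genes as well.

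The list of stimulating receptors that compete with or balance these genes also holds the ligand gene Tnfsf14. Its genes moved both ways with TSLP, 4 of 11 rising and 5 falling (median -0.31). Over all genes 22.7% were called as higher and 23.1% as lower. Cd28, the stimulating counterpart of Ctla4, was at 244 ± 8.45 normalised reads with TSLP and 144 ± 9.87 without (log2 0.76, SE 0.09, adjusted p = 0.000538). Icos, a receptor of the same family, was at 228 ± 2.02 and 159 ± 10.8 (log2 0.52, adjusted p = 0.00248). With length and GC trends removed Icos was at 0.13 (adjusted p = 0.108). The other rises were Slamf1 and Slamf6 (0.72 and 0.56), and the falls included Cd2 (-0.50), whose sign turned with T cell scaling (0.09), and Tnfsf14, an HVEM ligand (-0.70). Cd2 was at -0.09 with the length trend removed (adjusted p = 0.291). In lung 0 of these 11 passed (edgeR, 2 at an unadjusted p under 0.05, DESeq2 called 2, and 2 passed without control 3), and Cd28 was at 0.22 and Icos at 0.14.

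Among 19 genes of signalling and trafficking, 9 rose with TSLP and 0 fell (median 0.11), against 22.7% of all genes as higher and 23.1% as lower. Cmtm6, whose product keeps PD-L1 at the cell surface, was at 119 ± 3.17 normalised reads with TSLP and 68.9 ± 6.55 without (log2 0.79, SE 0.10, adjusted p = 0.000645). Inpp5d, the gene for the phosphatase SHIP-1, rose by a log2 of 0.44 (adjusted p = 0.00507). Lrba and Dock8, the first of which protects CTLA-4 from degradation, rose by 0.41 and 0.37. Pik3r1 rose by 0.42 and Adam17, a protease that sheds LAG-3, by 0.39. With length and GC trends removed Pik3r1 was at 0.06 (adjusted p = 0.536) and Adam17 at 0.02 (adjusted p = 0.871). Lrba was at 0.20 there (adjusted p = 0.060), and Dock8 at 0.21 with the length trend alone removed (adjusted p = 0.069). Cmtm6 and Inpp5d kept their calls with either trend removed. Fewer of the 19 were called without TCR + TSLP library 1 or 2, over all genes as well. In lung, where 0.771% of all genes were called as higher, 1 of the 19 rose and 0 fell (median 0.06). This was Ptpn22, a phosphatase that damps T cell receptor signals, at 281 ± 31.1 in Crlf2-deleted and 149.9 ± 22.5 normalised reads in control libraries (log2 0.92, SE 0.15, adjusted p = 0.0295). Without control 1 or 2, or without Crlf2-deleted 1 or 3, 0 of the 19 passed, and without control 3 the count was 3.

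Among 20 transcription factors linked to inhibitory receptor genes, 7 rose and 1 fell with TSLP (median 0.24). The shares over all genes were 22.7% as higher, 23.1% as lower and 45.8% in either direction. Irf4, a factor of activated Tregs, was at 920 ± 27.7 normalised reads with TSLP and 522 ± 4.59 without (log2 0.82, SE 0.09, adjusted p = 0.000332). Tcf7 rose by 0.87, Stat3 by 0.55, Stat5b by 0.42 and Prdm1 by 0.41. With length and GC trends removed Prdm1 was at 0.10 (adjusted p = 0.517). Stat5b was at 0.21 with the length trend alone removed (adjusted p = 0.0572). Batf was at -0.42 (adjusted p = 0.00482), and its sign turned with the length trend removed (0.18). Calls on these factors were more without TCR library 2 and fewer without TCR + TSLP library 2, over all genes as well. In lung, where 0.771% of all genes were called as higher, 19 were tested, 1 rose and 0 fell (median 0.03). It was Tox2, which is linked to the expression of Pdcd1 and other inhibitory receptors in exhausted T cells, at 98.9 ± 20.0 in Crlf2-deleted and 33.1 ± 9.29 normalised reads in control libraries (log2 1.61, SE 0.25, adjusted p = 0.0268). Without control 1 or 2, or without Crlf2-deleted 1 or 3, 0 passed, and without control 3 the count was 2.

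Of 16 other inhibitory receptor genes, 14 were tested with TSLP, of which 1 rose and 4 fell (median -0.29). The shares over all genes were 22.7% as higher and 23.1% as lower. Lilrb4 rose (log2 0.55, adjusted p = 0.0235) and Cd72, Siglecg, Cd300a and Cd96 fell (-1.30, -1.28, -1.16 and -0.47), the sign of Cd96 turning with T cell scaling (0.12). With DESeq2 Lilrb4, Siglecg and Cd300a did not pass (adjusted p = 0.062, 0.158 and 0.065). Cd300a was at 11.2 ± 0.557 normalised reads with TSLP and 25.1 ± 13.1 without, so that its TCR libraries lay far apart. Siglecg was low, at 0.356 ± 0.0268 normalised reads with TSLP and 0.865 ± 0.0180 without. Cd72 and Siglecg are best known from B cells. Of the 5 B cell markers 4 also fell in that comparison, and Ms4a1 did not pass (0.22, adjusted p = 0.226). Cd22, another receptor of this list, did not pass either (-0.44, adjusted p = 0.0557). The part of B cells in these falls was not tested. More of these genes were called without TCR library 2 and fewer without TCR + TSLP library 1 or 2, over all genes as well. In lung 15 were tested and 0 passed (edgeR, 3 at an unadjusted p under 0.05, DESeq2 called 2, and 1 passed without control 3). The median was -1.21, with a wide spread among control libraries for many of these genes. Control values were 27.0 ± 39.2 for Cd244, 18.1 ± 29.0 for Siglecg and 51.1 ± 61.7 for Pirb. Cd6 and Cd96 were at -0.01 and -0.16, and 2 of the 15 were above 0, Cd5 (0.02) and Cd101 (0.60). Control 3 held the most B cell, NK cell and macrophage markers, and its part in this median was not tested.

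The 2 comparisons were set against each other in 1 fit of all 10 libraries, as the TSLP effect minus the effect of the deletion. TSLP was added in the first and its receptor chain removed in the second, but the tissue, the culture and possibly the kit differ as well and cannot be told apart. Of the 10 genes 6 differed, against 12.9% of 11886 genes tested in both. This too is a description, because the members were chosen with earlier results known. Lag3 differed most, at -3.04 (SE 0.21, adjusted p = 8.46e-05), from effects of -0.98 with TSLP and 2.08 with the deletion. Pdcd1 differed by -2.30 (SE 0.41, adjusted p = 0.0062), from -0.34 and 1.97, and Klrg1 by -1.63 (SE 0.37, adjusted p = 0.0163), from -0.40 and 1.25. The difference was positive for Btla (1.24, adjusted p = 0.0137), Cd200 (1.08, adjusted p = 0.0425) and Cd274 (1.07, adjusted p = 0.029).

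The effects on Tigit did not differ detectably, at 1.06 with TSLP and 1.09 with the deletion (difference -0.02, adjusted p = 0.977), nor did those on Ctla4 (-0.42, adjusted p = 0.481), Havcr2 (-0.20, adjusted p = 0.848) and Cd160 (0.66, adjusted p = 0.762). Without lung control 3 that of Cd160 was -2.14 (adjusted p = 0.103) and that of Tigit 0.20 (adjusted p = 0.472). With 1 library left out, Lag3 kept its call in every case (-2.96 to -3.14, adjusted p up to 0.00271). Pdcd1 lost it without TCR + TSLP library 2 (adjusted p = 0.0553). Fewer of the 10 genes were called without TCR library 1 and without TCR + TSLP library 1 or 2, over all genes as well.

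Ctla4 has 2 deposited transcripts that differ by a 110 bp exon (exon 3, chr1:60913219-60913328 on GRCm38 in the GENCODE annotation), which encodes the membrane-spanning region. A form of CTLA-4 without it is known as soluble CTLA-4. Reads counted only for the longer transcript made up 3.76% (exact 95% interval 3.37 to 4.19) and 4.68% (4.32 to 5.06) of Ctla4 reads in the TCR + TSLP libraries. In the TCR libraries they made up 1.18% (0.897 to 1.53) and 2.53% (2.12 to 2.98). The exon is 5.69% of the transcript's length, and the cultures lay below that share in all 4 libraries.

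In lung the shares were 7.41%, 7.15% and 7.59% in Crlf2-deleted libraries, against 6.42%, 5.70% and 6.13% in control libraries. The groups did not overlap in either comparison. The mean difference was 2.37 points between TCR + TSLP and TCR cultures (exact permutation test, two-sided, p = 0.333, n = 2 each) and 1.30 points between Crlf2-deleted and control Tregs (p = 0.1 in the same exact test, n = 3 each), each the smallest p its design allows. Intervals cover counting error only. Reads over the junctions of the exon can be counted for either transcript, and the part of uneven coverage along the transcript was not tested.

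**Figure D5:**
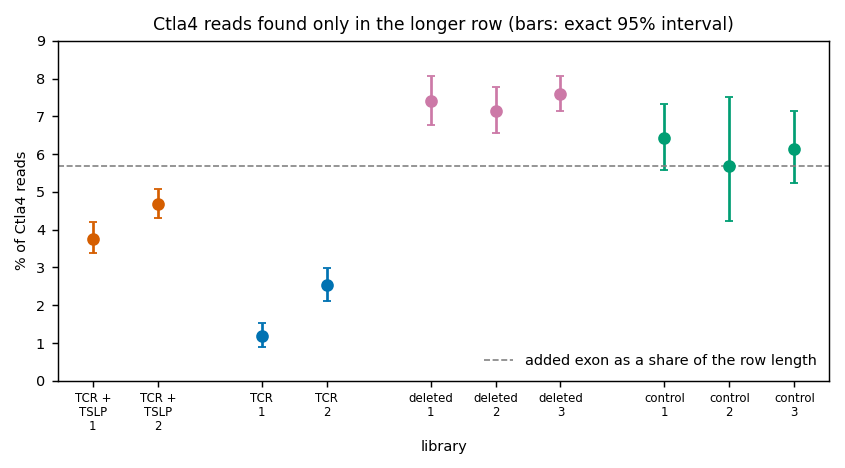
Share of Ctla4 reads (y axis, %) counted only for the longer deposited transcript in each of the 10 libraries, with exact 95% intervals. The dashed line is the share of the exon in the transcript's length, 5.69%. The 4 spleen libraries lie below the line, and the Crlf2-deleted libraries (7.15% to 7.59%) lie above the control libraries (5.70% to 6.42%).

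Genes with a like pattern were sought over all 10 libraries, by the root mean square difference of log2 normalised reads centred on each gene's mean, among 8936 or 8937 candidates. Nearest to Klrg1 were Itgae, the integrin chain CD103 (0.24), and Areg, the growth factor amphiregulin (0.34). Cd274 was nearest to Slc28a2 (0.17) and Nlrc5, an activator of MHC class I genes (0.18), and Tigit to Rbl2 (0.22) and Dusp5 (0.23). Ctla4 was nearest to Akr1b10 (0.15), Cd200 to Pank3 (0.15), Btla to Cenpe (0.22), Pdcd1 to Gm17745 (0.21) and Havcr2 to Fam46c (0.25). Lag3 and Cd160 had no gene as close, their nearest being Slc25a42 (0.43) and Pdlim4 (0.79). The values are descriptions over 4 groups of libraries, and much of each pattern is the step between spleen and lung.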

How the data were processed

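Groups and replicate numbers came from the labels. Per the labels' protocols, stimulated nTreg libraries were made with a stranded total RNA kit after ribosomal RNA depletion and read as 50 bp single ends. The kit for lung Tregs is not stated separately. Whether replicates are separate animals or cultures is not said in the labels, and p-values reflect the spread among these libraries alone, possibly technical. The authors deposited whole read counts and RPKM for 31682 RefSeq transcripts per library, per the file headers. Tools listed in the submitters' processing notes are TopHat2 2.2.1, Bowtie2 2.2.6, bedtools 2.25.0, SAMtools 0.1.8 and edgeR, with the mm10 build. The sources used here give no counting tool or strand rule.

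From the counts, 1 transcript per symbol was tested with edgeR 4.0.16 (R 4.3.3, TMM, filterByExpr with a minimum count of 10, robust quasi-likelihood) within each comparison, over all genes. The SE was taken as log2 fold change over the square root of F. RPKM was used for levels between genes and for limma 3.58.1 with a pseudocount of 1 or 0.1. DESeq2 1.42.0, other scalings, other filters, trend removal (loess, span 0.3), a replicate block and leaving out each library were alternatives. Members and lists were chosen with earlier results of these data known. Named are all members, the checks, up to 6 called genes of each list by p and the 2 nearest profiles. In simulated counts the test recovered 87 of 100 genes changed 2-fold with TSLP (13080 genes) and 27 of 100 in lung (12456 genes), and 96 and 57 of 100 changed 4-fold. No replicates agreed within sampling noise (chi-square per degree of freedom 5.80 to 161).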

Additional observations from a re-analysis of the deposited data

Results flagged for a closer look

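In 6 genes the effect of TSLP on cultured spleen Tregs and the effect of Crlf2 deletion on lung Tregs differed in a test of the difference itself (edgeR, 1 fit of 10 libraries, adjusted p under 0.05). On the log2 scale the TSLP effect minus the deletion effect was -3.04 for Lag3, -2.30 for Pdcd1, -1.63 for Klrg1, 1.24 for Btla, 1.08 for Cd200 and 1.07 for Cd274. Over all 11886 genes tested in both, 12.9% differed. The call was lost in 8 of 15 alternative settings for Cd200, 7 for Cd274, 4 for Klrg1, 3 for Btla and 1 for Pdcd1. For Lag3 it was kept in all of them. Some of these settings leave a culture group with 1 library. The 2 comparisons differ in tissue, culture and possibly library kit, which cannot be told apart from the difference.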

How the results depend on the processing

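With TSLP, 5 members were called, 3 with all 4 groups in 1 fit and 8 with scaling to T cell genes (chosen after the data were seen). Over all genes the 4-group fit called 541 as higher and 815 as lower of 14445. T cell scaling called 8080 and 1000 of 13214. The count of members also changed with 1 library left out, as it did over all genes. With Crlf2 deletion 5 were called, 3 with library totals, with moderation that is not robust and with length and GC trends removed, 2 with summed transcripts, and 1 to 5 with 1 library left out. Over all genes the higher and lower calls were 98 and 129 of 12717. They were 137 and 57 with library totals, 63 and 93 without robust moderation, 80 and 124 with both trends removed and 61 and 73 with summed transcripts. In lung, Tigit and Cd274 were lost with moderation that is not robust (adjusted p = 0.0599 and 0.0552), and Klrg1 as well with summed transcripts (adjusted p = 0.0537). Of the difference between effects 6 were called, against 728 positive and 811 negative calls over 11886 genes. With the length trend removed 3 were called, against 484 and 406 over these genes. The count also changed with 1 library left out. Lag3 kept its direction and call in all 3 under every alternative run. Signs of genes called before or after the change of setting turned only with TSLP. On log2(RPKM + 1) or log2(RPKM + 0.1) these were Pdcd1 (0.0292 and 0.0329) and Pdcd1lg2 (0.0599 and 0.0757). With the length trend removed they were Isg15 (0.32) and Batf (0.18). With length and GC removed they were Btla (-0.21), Cd274 (-0.35), Crlf2 (0.20), Bst2 (0.11), Isg15 (0.36) and Batf (0.33). With T cell scaling they were Pdcd1 (0.25), Crlf2 (0.16), Cd2 (0.0904), Isg15 (0.17), Ifit1 (0.0425), Pdcd1lg2 (0.30), Cd96 (0.12) and Batf (0.17). Members called in neither also turned. In lung these were Havcr2 (-0.12, T cell scaling) and Cd200 (0.0276 with library totals, 0.19 and 0.29 on RPKM, 0.10 without control 3), with TSLP Klrg1 (0.19, T cell scaling), and Cd274, Ctla4 and Havcr2 (-0.18 or nearer to 0), and in the difference Tigit (up to 0.48), Havcr2 (up to 0.18) and Cd160 (-2.14). The cause was not tested. Where a culture group is left with 1 library, that library is assumed to vary like the other group. In the cultures T cell scaling rests on Cd3d and Cd3g, which themselves fell (log2 -1.21 and -1.01).

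Same-numbered replicates did not deviate together (correlations of -0.12 with TSLP and 0.08, -0.15 and -0.04 in lung, where 1 of 3 libraries correlated best with its own number). With 2 libraries in each culture group, centring on the group mean leaves a single size of correlation with either sign. The check therefore cannot tell whether same-numbered replicates share more than a number. With the replicate number as a block 5 members were called with TSLP, and 5 with crossed numbers (added after the data were seen). Over all 13214 genes the block called 2839 as higher and 2979 as lower, and crossed numbers 3568 and 3538. In lung the block left 1, Lag3, at a log2 of 2.08 (adjusted p = 0.00973).

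Over all genes, 2999 were called higher and 3051 lower with TSLP. Library totals gave 5059 and 2000 (median log2 0.24), limma on RPKM 5679 and 1249 (0.20), T cell scaling 8080 and 1000 (0.60) and all 4 groups in 1 fit 541 and 815. In lung 98 were higher and 129 lower, against 368 and 499 by DESeq2, 762 and 94 by limma on RPKM, 379 and 494 with all 4 groups, 137 and 57 with library totals, 31 and 651 with T cell scaling, 32 and 89 with the block, and 61 and 73 with summed transcripts. Without single lung libraries the counts ran from 2 and 2 (without Crlf2-deleted 1) to 252 and 280 (without control 3). Depth limits Cd160, Havcr2 and Btla in lung and Klrg1 in the cultures.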
